A study of Arabidopsis thaliana with 9 samples.

Results

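Catalases and the enzymes of the ascorbate-glutathione cycle remove hydrogen peroxide from plant cells. The 10 genes described here, chosen by name from this pathway and matched by locus identifier, are CAT1 (AT1G20630), CAT2 (AT4G35090), CAT3 (AT1G20620), APX1 (AT1G07890), SAPX (AT4G08390), TAPX (AT1G77490), DHAR1 (AT1G19570), DHAR2 (AT1G75270), GR1 (AT3G24170) and GR2 (AT3G54660). All 10 were found among the 38202 gene rows of the count table, and all 10 passed the filter on low counts that left 19889 genes for testing.

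Transcripts were counted by RNA sequencing in Arabidopsis thaliana leaves of the ecotype Columbia, grown for 6 days in MS medium (a plant culture medium), with 3 libraries per group. The agent was silver ions in the group Ag+ and silver nanoparticles in the group AgNPs, and CK, the remaining group, is read here as the control without silver. The labels do not state doses or how long exposure lasted. No mutant or transgene is named, and ecotype, organ and days in medium are shared by the 3 groups. RNA is described as pooled, and separate cultures for the 3 libraries of a group are not mentioned, so the p-values reflect spread between libraries that may be only technical.

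Catalases, which sit mainly in peroxisomes, split hydrogen peroxide into water and oxygen without a reductant. Ascorbate peroxidases (APX) reduce hydrogen peroxide with ascorbate, also in the cytosol and in chloroplasts, and the oxidised ascorbate is recycled by monodehydroascorbate reductases (MDAR) and by dehydroascorbate reductases (DHAR), the latter with glutathione. Glutathione reductases (GR) return oxidised glutathione to its reduced form with NADPH. In leaves CAT2 is known as the catalase of photorespiration, the pathway that recycles a product of Rubisco's reaction with oxygen and releases hydrogen peroxide in peroxisomes.

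Total counts lay between 16884010 and 19876151 per library. Levels are given as CPM, counts divided by the scaled library size, fold changes come from edgeR's quasi-likelihood test, and a gene was called where its adjusted p was under 0.05. A change in bulk RNA cannot tell a different number of cells of a type from a different amount of RNA per cell. All 17 leaf mesophyll markers had counts in each library, but so did all 14 root markers, so detection does not test the leaf label. Leaf marker sums stood far above root marker sums, which reached at most 233 CPM. The summed leaf level differed between groups: CK libraries had 47978 to 72875 CPM, Ag+ libraries 99738 to 124907 and AgNPs libraries 78328 to 113189. Heat-shock RNA set CK 3 apart from CK 1 and CK 2 (1022 against 138 and 141 CPM summed over 10 genes), and root markers set AgNPs 1 apart from AgNPs 2 and AgNPs 3 (233 against 99.0 and 95.2 CPM summed over 14 genes). Where calls of the 10 genes change without CK 3 and AgNPs 1, the value in that fit is given. For the listed genes, the calls or their number in that fit are given. Percentages of all tested genes called are those of edgeR on all 9 libraries. They do not apply to counts from that fit, DESeq2 or limma voom, or to counts at an unadjusted p.

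Of the 10 genes, CAT3 and DHAR1 rose with Ag+ against CK, DHAR1 rose with AgNPs against CK, and none was called between AgNPs and Ag+. With Ag+ 5.57% of all tested genes were called, and 2 of 10 called higher here stood beside 3.52% called higher, and 0 of 10 called lower beside 2.05%. With AgNPs 3.32% of all tested genes were called, and 1 of 10 called higher here stood beside 2.23%, and 0 of 10 called lower beside 1.09%. Between AgNPs and Ag+ edgeR called 0 of 10, beside 0.684% of all tested genes in either direction (0.508% higher, 0.176% lower). In that comparison 3 of the 10 (CAT3, SAPX and TAPX) had an unadjusted p under 0.05, DESeq2 called CAT3, and limma voom called 0. The median log2 fold change of the 10 genes was 0.07 with Ag+ and 0.07 with AgNPs against CK, and -0.30 for AgNPs against Ag+, while the medians over all tested genes were -0.009, -0.003 and -0.013. Both silver comparisons share the CK libraries and are therefore not independent of each other.

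**Figure D1:**
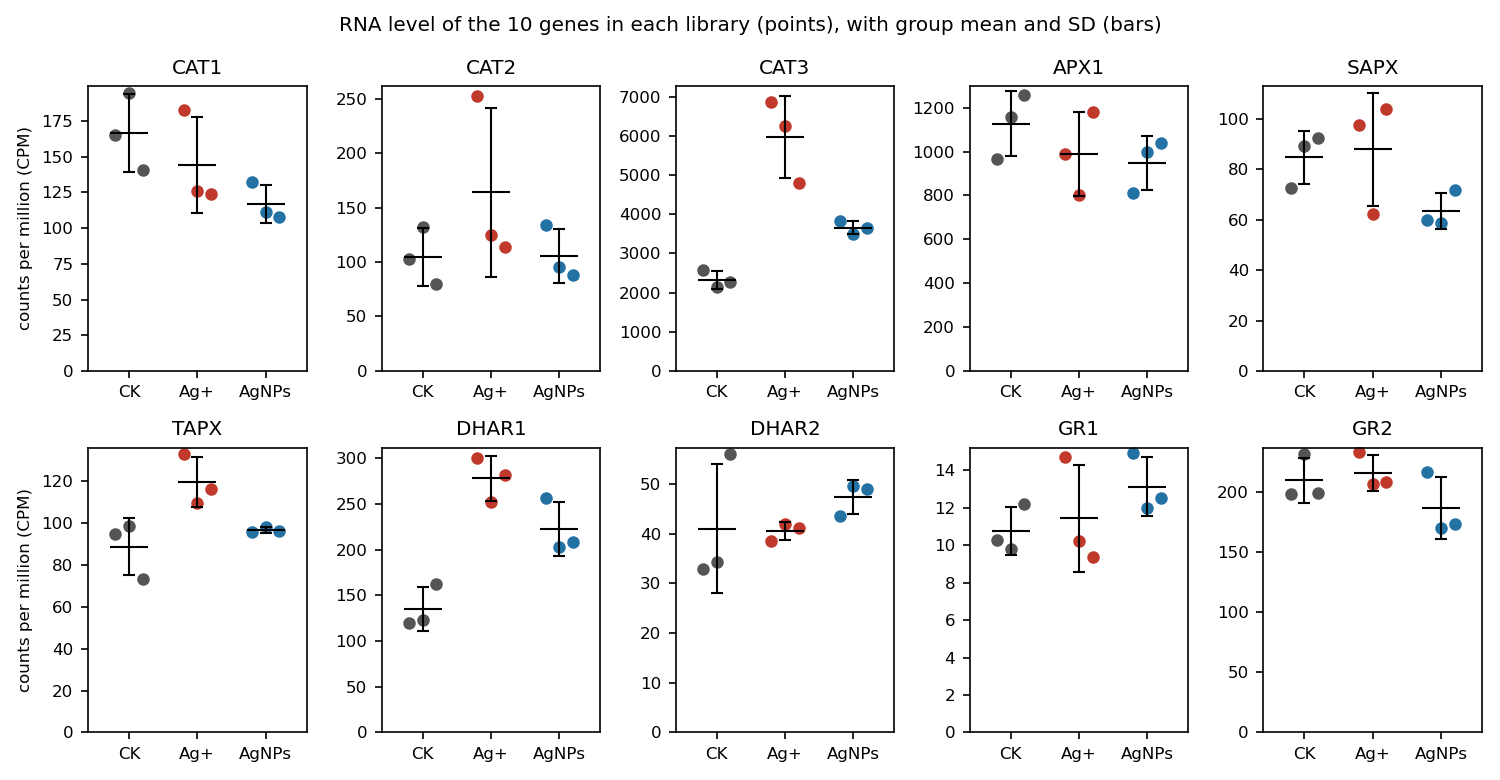
RNA level of each of the 10 genes in CPM (linear axis from 0) in the 9 libraries, with points for libraries and bars for the group mean and SD. CAT3 and DHAR1 show 3 Ag+ libraries above all 3 CK libraries, with the AgNPs libraries between or beside them. CAT1, SAPX, TAPX and DHAR2 have some groups apart without overlap, and the groups of CAT2, APX1, GR1 and GR2 all overlap.

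Promoters are shown for the genes that rose, since both were searched for motifs named in plant stress and daily rhythm. The reference was the RefSeq annotation of the assembly TAIR10.1. The submitters' processing notes name TAIR10, and the count table gives no coordinates. The 250 bases before the annotated start of CAT3 are chr1:7142722-7142971 on the plus strand, and those of DHAR1 are chr1:6774524-6774773 on the minus strand. Capitals mark an evening element (AAAATATCT, a motif of evening-phased genes) in CAT3, and a G-box (CACGTG, bound by bZIP and bHLH factors) in DHAR1:
CAT3: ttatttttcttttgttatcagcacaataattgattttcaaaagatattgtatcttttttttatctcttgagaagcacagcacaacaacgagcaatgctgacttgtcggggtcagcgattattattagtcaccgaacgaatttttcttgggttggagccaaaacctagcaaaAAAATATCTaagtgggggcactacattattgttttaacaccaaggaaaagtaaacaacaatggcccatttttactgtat
DHAR1: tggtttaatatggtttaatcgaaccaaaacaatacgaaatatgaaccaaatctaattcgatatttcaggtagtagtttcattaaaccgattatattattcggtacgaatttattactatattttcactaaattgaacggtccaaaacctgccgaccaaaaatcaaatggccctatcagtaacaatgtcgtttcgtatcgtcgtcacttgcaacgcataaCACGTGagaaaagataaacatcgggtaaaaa

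Motifs were searched on both strands from 250 bases before to 50 bases after the start of 27443 annotated genes. The evening element was found in 2.82% of all promoters and in 1 of the 10 genes, CAT3, where it begins 79 bases before the start. The G-box was found in 7.68% of all promoters and in 1 of the 10, DHAR1, beginning 31 bases before the start. The copper response core GTAC was in 7 of the 10 windows (CAT2, CAT3, TAPX, DHAR1, DHAR2, GR1 and GR2) and in 39.0% of all promoters. The CCA1 binding site AAAAATCT (7.88% of all promoters) and a heat shock element (0.481%) were in 0 of the 10 windows. A match describes letters in the window and shows no binding.

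CAT3, the catalase whose RNA is known to peak in the evening and to be strong in the vasculature, was the most abundant catalase RNA in each library. It stood at 2587, 2149 and 2258 CPM in CK 1 to 3, at 6852, 6259 and 4798 CPM in Ag+ 1 to 3, and at 3827, 3499 and 3652 CPM in AgNPs 1 to 3. The 3 groups did not overlap: CK was lowest, AgNPs intermediate and Ag+ highest. With Ag+ CAT3 rose 2.56-fold, from 2331 ± 228 to 5969.6 ± 1057 CPM (SD, n = 3; log2 fold change 1.36, SE 0.16, edgeR adjusted p = 0.00197). It was called under all 18 other settings tried, with a highest adjusted p of 0.0124.

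With AgNPs the mean CAT3 level was 3659.5 ± 164 CPM (SD, n = 3), 1.57-fold that of CK, and was not called (log2 fold change 0.65, 95% interval 0.30 to 1.00, edgeR adjusted p = 0.0587). The call depended on the test: DESeq2 gave an adjusted p of 0.00176, limma voom 0.0446, upper-quartile factors 0.0462, and edgeR without Ag+ 3 gave 0.049, within a range of 0.00176 to 0.189 over the alternatives. Between AgNPs and Ag+ the CAT3 level was 1.63-fold lower with AgNPs and was not called (log2 fold change -0.71, 95% interval -1.06 to -0.35, edgeR adjusted p = 0.0834). It was called lower by DESeq2 (adjusted p = 0.00121) and by edgeR without CK 3 and AgNPs 1 (0.0341), within a range of 0.00121 to 0.316.

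CAT2, the leaf catalase of photorespiration, stood at 103, 132 and 79.4 CPM in CK, at 253, 125 and 114 CPM in Ag+, and at 134, 95.4 and 87.8 CPM in AgNPs. Ag+ 1 was the highest of the 9 libraries, and the other Ag+ libraries lay inside the CK range. The log2 fold change with Ag+ was 0.65 with a 95% interval of -0.08 to 1.38 (edgeR adjusted p = 0.326), and that with AgNPs was 0.01 with an interval of -0.72 to 0.74 (adjusted p = 0.991). Without Ag+ 1 the first of these values was 0.19. The second had the opposite sign in some alternatives, with values from -0.36 to 0.22. CAT2 overlaps AT4G35080 on the other strand by 95 bases, and reads there cannot be assigned without the strand setting of the count.

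CAT1, a catalase known from seeds, pollen and stressed seedlings, was at 165, 195 and 140.5 CPM in CK, at 183, 126 and 124 CPM in Ag+, and at 132, 111 and 108 CPM in AgNPs. All AgNPs libraries lay below all CK libraries, while Ag+ and CK overlapped. With AgNPs its log2 fold change was -0.51 with a 95% interval of -0.92 to -0.11 and was not called (edgeR adjusted p = 0.178). It was called lower without CK 3 and AgNPs 1 (log2 fold change -0.72, adjusted p = 0.0499), within a range of 0.0499 to 0.498 over the alternatives. With Ag+ the log2 fold change was -0.21 with an interval of -0.61 to 0.19 (adjusted p = 0.606).

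CAT1 and CAT3 are neighbours on chromosome 1 on the same strand, with 95 bases between the end of CAT3 (7146540) and the start of CAT1 (7146636). Across the 9 libraries the Pearson correlation of their log2(CPM + 1) values was -0.21, given as a description. The 3 catalases share 76.5% to 80.3% of their aligned coding bases, with identical runs of at most 32 bases, and how the authors' counting treated reads that match several genes is unknown here.

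Per kilobase of the longest annotated transcript, the 3 catalase RNAs summed to 1010.3, 883 and 876 CPM per kb in CK 1 to 3. They summed to 2554, 2274 and 1763 CPM per kb in Ag+ 1 to 3, and to 1437, 1299 and 1348 CPM per kb in AgNPs 1 to 3. The groups did not overlap, and the order was CK, AgNPs, Ag+. CAT3 made up 84.3% to 89.3% of this sum in CK, 93.0% to 95.4% in Ag+ and 92.3% to 93.9% in AgNPs. The ratio of CAT3 to CAT1 per kilobase was 12.1, 8.51 and 12.4 in CK, 29.0, 38.3 and 29.9 in Ag+, and 22.4, 24.4 and 26.1 in AgNPs. The ratio of CAT3 to CAT2 overlapped between the groups, at 14.6 to 25.6 in CK, 24.4 to 45.1 in Ag+ and 25.8 to 37.5 in AgNPs, with AgNPs just above CK. The 3 catalase genes took 0.248% to 0.289% of all counts in CK, 0.502% to 0.661% in Ag+ and 0.384% to 0.409% in AgNPs.

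**Figure D2:**
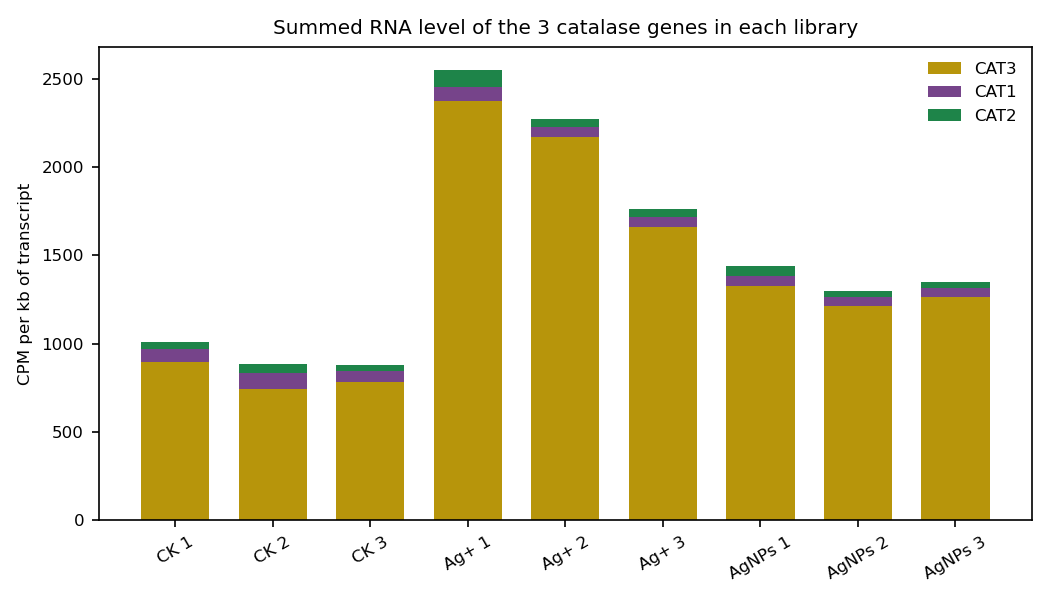
Summed RNA level of CAT1, CAT2 and CAT3 in each of the 9 libraries, stacked by gene, in CPM per kb of transcript on a linear axis from 0. CAT3 makes up most of each bar, and the 3 Ag+ bars (1763 to 2554) stand above the AgNPs bars (1299 to 1437) and the CK bars (876 to 1010.3).

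Among the ascorbate peroxidases, APX1, the main cytosolic enzyme, was at 967, 1159 and 1257 CPM in CK, at 988, 799.9 and 1180 CPM in Ag+, and at 810.5, 996 and 1041 CPM in AgNPs. The groups overlapped. The log2 fold change of APX1 was -0.19 with Ag+ (95% interval -0.58 to 0.20, edgeR adjusted p = 0.637) and -0.25 with AgNPs (-0.64 to 0.14, adjusted p = 0.54). Both upper bounds lay below the rises of CAT3 and DHAR1 with Ag+.

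SAPX, the peroxidase of the chloroplast stroma and of mitochondria, was at 72.7, 89.3 and 92.4 CPM in CK, at 97.5, 62.2 and 104 CPM in Ag+, and at 60.1, 58.7 and 71.9 CPM in AgNPs. All AgNPs values lay below all CK values, and the Ag+ values spanned both. With AgNPs its log2 fold change was -0.42 with a 95% interval of -0.84 to 0.01 (edgeR adjusted p = 0.31), and with Ag+ it was 0.05 with an interval of -0.38 to 0.48 (adjusted p = 0.927).

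TAPX, the peroxidase bound to the thylakoid membrane, was at 94.7, 98.3 and 73.0 CPM in CK, at 133, 109.6 and 116 CPM in Ag+, and at 95.7, 98.1 and 96.1 CPM in AgNPs. Each Ag+ library stood above each CK and each AgNPs library. For Ag+ its log2 fold change was 0.43 with a 95% interval of 0.13 to 0.73, which did not reach the threshold after adjustment (edgeR adjusted p = 0.102). With AgNPs it was 0.12 with an interval of -0.17 to 0.42 (adjusted p = 0.723). SAPX and TAPX share 77.9% of their aligned coding bases with identical runs of at most 21 bases.

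Among the dehydroascorbate reductases, which regenerate ascorbate with glutathione, DHAR1 was at 120.3, 123 and 163 CPM in CK 1 to 3, at 300.1, 252 and 282 CPM in Ag+ 1 to 3, and at 257, 203 and 208 CPM in AgNPs 1 to 3. All 6 silver libraries stood above all 3 CK libraries, and the silver groups overlapped. With Ag+ DHAR1 rose 2.05-fold, from 135 ± 23.8 to 278 ± 24.2 CPM (SD, n = 3; log2 fold change 1.04, SE 0.15, edgeR adjusted p = 0.00564). It was called under all 18 other settings tried, with a highest adjusted p of 0.0279.

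With AgNPs DHAR1 rose 1.65-fold to 223 ± 30.1 CPM (SD, n = 3; log2 fold change 0.72, SE 0.15, edgeR adjusted p = 0.0351). This call was lost when any 1 library other than CK 3 was left out (adjusted p of 0.0526 to 0.135) and when only the 6 libraries compared were fitted (0.0917), while the log2 fold change stayed between 0.60 and 0.88 as libraries were left out. Without CK 3 it was kept (adjusted p = 0.0116), and over all alternatives the adjusted p ranged from 0.00136 to 0.135. Between AgNPs and Ag+ the log2 fold change of DHAR1 was -0.32 with a 95% interval of -0.66 to 0.02 (adjusted p = 0.364).

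DHAR2, the other cytosolic enzyme of this kind, was at 32.9, 34.3 and 56.0 CPM in CK, at 38.6, 42.0 and 41.2 CPM in Ag+, and at 43.5, 49.7 and 49.1 CPM in AgNPs. CK 3, the CK library with the most heat-shock RNA, was the highest of the 9, and CK 1 and CK 2 were the lowest. The log2 fold change with AgNPs was 0.21 with a 95% interval of -0.22 to 0.63 (edgeR adjusted p = 0.659). It was called higher without CK 3 (log2 fold change 0.51, adjusted p = 0.0468) and without CK 3 and AgNPs 1 (0.56, adjusted p = 0.0247), within a range of 0.0247 to 0.912. With Ag+ it was -0.02 with an interval of -0.44 to 0.41 (adjusted p = 0.98). DHAR1 and DHAR2 share 78.5% of their coding bases, with identical runs of at most 21 bases.

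Of the glutathione reductases, GR2, the enzyme of chloroplasts and mitochondria, was at 198, 231 and 199 CPM in CK, at 233, 206 and 208 CPM in Ag+, and at 216, 170.1 and 173 CPM in AgNPs. GR1, the enzyme of the cytosol and peroxisomes, had the lowest level of the 10 genes, at 10.3, 9.79 and 12.2 CPM in CK, 14.7, 10.2 and 9.38 CPM in Ag+, and 14.9, 12.0 and 12.5 CPM in AgNPs. Groups overlapped for both genes. With Ag+ the log2 fold change was 0.04 for GR2 (95% interval -0.24 to 0.33, edgeR adjusted p = 0.9) and 0.08 for GR1 (-0.35 to 0.51, adjusted p = 0.876). With AgNPs it was -0.17 for GR2 (-0.45 to 0.12, adjusted p = 0.584) and 0.28 for GR1 (-0.14 to 0.71, adjusted p = 0.52). GR1 overlaps AT3G24160 on the other strand by 74 bases and AT3G24180 on its own strand by 14 bases.

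**Figure D3:**
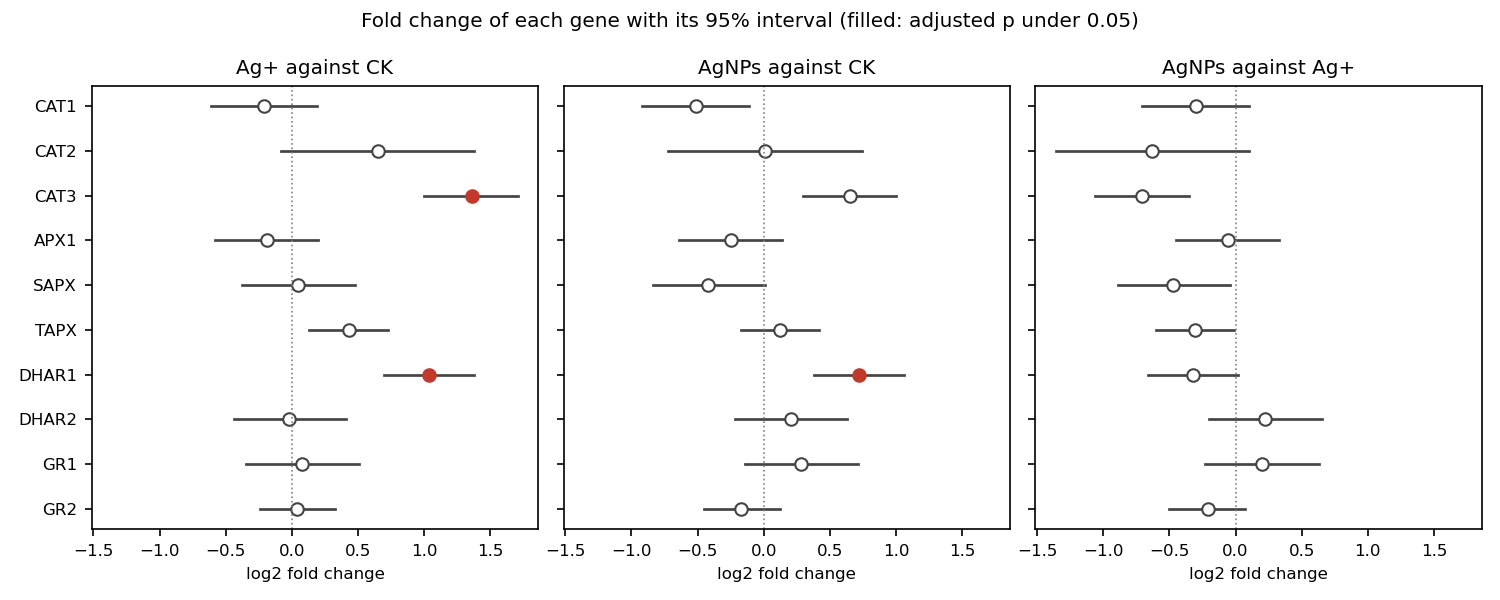
Log2 fold change of each of the 10 genes with its 95% interval in the comparisons of Ag+ against CK, AgNPs against CK and AgNPs against Ag+, with filled points for an adjusted p under 0.05 and a dotted line at 0. CAT3 (1.36) and DHAR1 (1.04) are filled for Ag+ and DHAR1 (0.72) for AgNPs, and no point is filled between AgNPs and Ag+.

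Groups of 3 libraries that do not overlap were counted as a second, weaker criterion. With Ag+ against CK, 3 of the 10 genes (CAT3, TAPX and DHAR1) stood wholly higher and 0 wholly lower, where 12.7% and 10.7% of all tested genes did so (23.3% in either direction). With AgNPs against CK, 2 (CAT3 and DHAR1) stood wholly higher beside 11.4% of all tested genes and 2 (CAT1 and SAPX) wholly lower beside 11.1% (22.6% in either direction). Between AgNPs and Ag+, DHAR2 stood wholly higher with AgNPs beside 10.4% of all tested genes, and CAT3 and TAPX wholly lower beside 11.7% (22.1% in either direction).

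Ordered by level per kilobase, APX1 and CAT3 led in CK and could not be ordered, at 814 ± 106 and 808 ± 79.0 CPM per kb (SD, n = 3), since their libraries overlapped. In Ag+ CAT3 stood at 2069 ± 366 against 714 ± 137 CPM per kb for APX1, and in AgNPs at 1268 ± 57.0 against 685 ± 88.3, with no overlap in either group. DHAR1 came next in each group, at 148, 305 and 244 CPM per kb in CK, Ag+ and AgNPs. GR2 (89.8, 92.6 and 80.0 CPM per kb) and CAT1 (75.0, 64.8 and 52.5) followed, overlapping in CK and separate in Ag+ and AgNPs. In Ag+ neither could be ordered above CAT2, whose libraries, at 43.8 to 97.3 CPM per kb, overlapped both. SAPX, CAT2, DHAR2 and TAPX lay between 32.1 and 63.1 CPM per kb in group means, and most neighbours among them overlapped. GR1 was the lowest in each group, at 4.81, 5.10 and 5.86 CPM per kb.

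CAT3 and the summed RNA of the 17 leaf mesophyll markers both stood higher in every silver library than in any CK library. Of these markers, edgeR called 11 higher with Ag+ against CK and 3 with AgNPs against CK, beside 3.52% and 2.23% of all tested genes. The 6 not called with Ag+ included RBCS1A (log2 fold change 0.22, edgeR adjusted p = 0.586) and RCA (0.36, adjusted p = 0.34), so the list did not move as one. DESeq2 called 15 and 9 of the 17 higher, and limma voom 11 and 4. With CK 3 and AgNPs 1 left out edgeR called 14 and 2 higher. For AgNPs against Ag+ all 17 log2 fold changes were below 0 (median -0.35). There edgeR called 0, with 0 at an unadjusted p under 0.05. DESeq2 and limma voom called 0, and edgeR without CK 3 and AgNPs 1 called 5 lower with AgNPs. The part of this difference in the values of CAT3 and DHAR1 was not tested. Root marker sums did not separate Ag+ (101 to 126 CPM) from CK (102 to 124 CPM). They rested mostly on SCR, OCT3 and SHR, at means of 42.7, 23.2 and 13.8 CPM in CK, and say little of the lower markers. Of 13 root markers tested, edgeR called 0 with Ag+ against CK. Seed markers, at 0.248 to 1.07 CPM in sum in CK, were at 3.46 to 38.6 CPM in Ag+ and 5.66 to 15.3 CPM in AgNPs, with the seed storage gene CRB at 0 counts in all 9 libraries. Of 5 seed markers 3 were tested, and edgeR called 2 (CRA1 and OLEO1) higher with Ag+ and 1 (CRA1) with AgNPs. DESeq2 called 4 and 2 of the seed markers higher, and limma voom called 0 in both comparisons. Without CK 3 and AgNPs 1 edgeR called OLEO1 and OLEO2 with Ag+ and 0 with AgNPs, so CRA1 was lost in both. Their part in the results was not tested.

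Time of day was examined because CAT2 and CAT3 RNA are known to peak at different times. TOC1, a clock gene expressed around dusk, was at 251, 280 and 213 CPM in CK, at 255, 195 and 222 CPM in Ag+, and at 195, 147 and 163 CPM in AgNPs. The AgNPs libraries lay below the CK libraries, and the log2 fold change was -0.56 (95% interval -0.91 to -0.21, edgeR adjusted p = 0.0909). The morning genes CCA1 and LHY were low in each group, at group means of 0.423 to 1.26 and 0.448 to 1.66 CPM. In log2 fold change against CK, 8 of the 11 clock genes were above 0 and 3 below in each silver group. The medians were 0.68 and 0.53. PRR7 (0.85 and 0.79) and GI (0.68 and 0.53) stood wholly above CK in both. With Ag+ 3 stood wholly higher and 0 wholly lower, beside 12.7% and 10.7% of all tested genes. With AgNPs 5 stood wholly higher and 2 wholly lower, beside 11.4% and 11.1%. Of 11 clock genes edgeR called 0 in each comparison, with 5, 7 and 1 at an unadjusted p under 0.05 for Ag+ against CK, AgNPs against CK and AgNPs against Ag+. DESeq2 called 2 higher (PRR7 and GI) and 1 lower (ELF4) with Ag+ against CK. With AgNPs against CK it called 2 higher (PRR9 and PRR7) and 2 lower (TOC1 and ELF4), and between AgNPs and Ag+ 0. Limma voom called 0 in each, and without CK 3 and AgNPs 1 edgeR called 0, 1 lower (TOC1) and 0. Sampling time is not given in the labels, and its part in the CAT3 values was not tested.

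The genes most like CAT3 over the 9 libraries, by Pearson correlation of log2(CPM + 1) among 11735 genes with a mean of at least 10 CPM, were LURP1 (0.988), AT3G54440 (0.975) and AT5G15510 (0.971). LURP1, known as a gene induced late in the response to a pathogen, had group means of 1.09, 21.9 and 7.18 CPM in CK, Ag+ and AgNPs. It passed the minimum of 10 CPM only through its level in Ag+, so its place in this order rests on that group. Those most like DHAR1 were the actin gene ACT1 (0.986), TOE2 (0.985), a floral repressor, and ASPG1 (0.974), an aspartic protease. Within the 10 genes, the correlation of CAT3 was 0.889 with DHAR1, 0.81 with TAPX, 0.611 with CAT2 and -0.515 with APX1. These values are descriptions over 9 libraries that fall into 3 groups.

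The wider pathway was described by 49 further genes, of which 47 had enough counts to be tested. APX2, a cytosolic peroxidase known as a target of heat shock factors, had 9 counts over all 9 libraries, and the glutathione peroxidase GPX4 had 65. With Ag+ 1 of the 47 was called higher and 2 lower, with AgNPs 1 higher and 1 lower, and between AgNPs and Ag+ 1 higher and 0 lower. All tested genes gave 3.52% higher and 2.05% lower with Ag+, 2.23% and 1.09% with AgNPs, and 0.508% and 0.176% between AgNPs and Ag+. DESeq2 called 1 higher and 2 lower, 1 higher and 4 lower, and 2 higher and 1 lower, and limma voom 0 higher and 2 lower, 0 higher and 1 lower, and 0 in either direction. Their median log2 fold changes were 0.05, -0.21 and -0.28, beside -0.009, -0.003 and -0.013 over all tested genes. Without CK 3 and AgNPs 1 the counts were 4 higher and 3 lower, 2 higher and 7 lower, and 2 higher and 8 lower. That fit and DESeq2 called more of all genes in each comparison than edgeR on all 9 libraries, so the percentages above are not theirs.

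**Figure D4:**
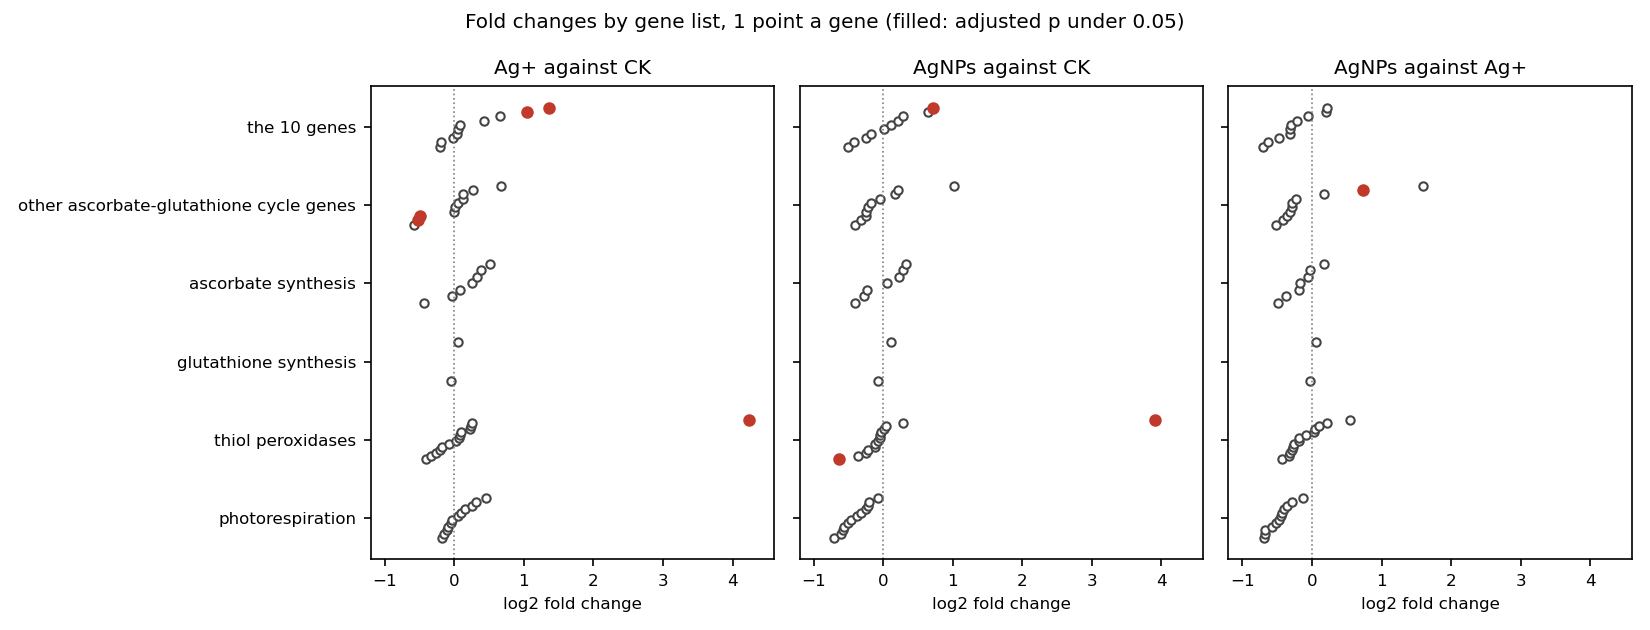
Log2 fold changes of the 10 genes and of the further pathway genes, 1 point per gene, grouped by list, in the 3 comparisons, with filled points for an adjusted p under 0.05. Photorespiration genes lie below 0 in both comparisons with AgNPs (medians -0.42 and -0.46). So do most further pathway genes, these included (35 and 37 of 47). PER1 stands far to the right in both silver comparisons against CK (4.23 and 3.91).

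Of 10 tested further genes of the ascorbate-glutathione cycle, 2 fell with Ag+, beside 2.05% of all tested genes. Both were for monodehydroascorbate reductases, which return the ascorbate radical to ascorbate. MDAR2, a cytosolic form, was at 173, 166 and 201 CPM in CK, at 122, 122 and 132 CPM in Ag+, and at 182, 221 and 223 CPM in AgNPs. Ag+ lay below the other two groups without overlap. MDAR2 fell with Ag+ (edgeR adjusted p = 0.038, log2 fold change -0.52, SE 0.12) and was 1.67-fold higher with AgNPs than with Ag+ (0.74, SE 0.12, adjusted p = 0.0408). The first call was lost without any 1 of the libraries other than AgNPs 1 (adjusted p of 0.0568 to 0.128) and in the fit of only the 6 libraries (0.0596), and the second without Ag+ 1, Ag+ 2, Ag+ 3, AgNPs 2 or AgNPs 3 (0.115 to 0.196) and with limma voom (0.0523). Over all alternatives the adjusted p ranged from 0.00325 to 0.128 and from 1.81e-05 to 0.196. MDAR3, a further member of this family, was called higher with AgNPs than with Ag+ by DESeq2 and by edgeR without CK 3 and AgNPs 1, but not by edgeR on all 9 libraries (log2 fold change 1.59, adjusted p = 0.0762).

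MDAR6, the form of chloroplasts and mitochondria, was at 168, 179 and 151 CPM in CK, at 123, 112 and 118 CPM in Ag+, and at 128, 132 and 139.6 CPM in AgNPs. CK stood above both silver groups, and Ag+ below AgNPs. MDAR6 fell with Ag+ (log2 fold change -0.50, SE 0.11, edgeR adjusted p = 0.0248), a call lost without CK 1, CK 2, Ag+ 1, Ag+ 2, Ag+ 3 or AgNPs 2 (0.0532 to 0.0966) and in the fit of only the 6 libraries (0.0604), within a range of 0.000307 to 0.0966. With AgNPs its log2 fold change was -0.32 with a 95% interval of -0.55 to -0.08 (adjusted p = 0.149). With Ag+, RNA of DHAR1 rose and RNA of MDAR2 and MDAR6 fell, the falls in calls that some alternatives lost. The other listed genes of both families were not called with Ag+. Their log2 fold changes were -0.02 for DHAR2, 0.13 for DHAR3, 0.01 for MDAR1, -0.58 for MDAR3 and 0.12 for MDAR4.

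Of 14 tested thiol peroxidases, which reduce peroxides with thiols, 1 rose with Ag+, and 1 rose and 1 fell with AgNPs. Over all tested genes 3.52% were called higher with Ag+, and 2.23% higher and 1.09% lower with AgNPs. PRXQ, a peroxiredoxin of the chloroplast, was at 621, 806 and 591 CPM in CK, at 594, 562 and 592 CPM in Ag+, and at 475, 400.3 and 427 CPM in AgNPs. AgNPs stood below both other groups. PRXQ fell with AgNPs against CK (edgeR adjusted p = 0.0399, log2 fold change -0.63, SE 0.14). The call was lost without CK 1, CK 2, Ag+ 1, Ag+ 2, Ag+ 3, AgNPs 2 or AgNPs 3 (0.0573 to 0.172) and in the fit of only the 6 libraries (0.106), within a range of 0.00129 to 0.172.

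PER1, a peroxiredoxin known from seeds, was counted 4, 1 and 11 times in CK 1 to 3, 59, 182 and 34 times in Ag+ 1 to 3, and 102, 70 and 58 times in AgNPs 1 to 3. All silver libraries stood above all CK libraries, at low counts. PER1 rose with Ag+ (edgeR adjusted p = 0.0173, log2 fold change 4.23, SE 0.79) and with AgNPs (3.91, SE 0.79, adjusted p = 0.0322). With the replicate number as a block in the 6 libraries compared, the call with Ag+ was lost (adjusted p = 0.055), and it was lost without CK 1 (0.0597), without CK 2 (0.0613) and with limma voom (0.0916), within a range of 1.89e-07 to 0.0916. With AgNPs it was lost without CK 1, CK 2, Ag+ 1, AgNPs 1, AgNPs 2 or AgNPs 3 (0.0519 to 0.121) and with limma voom (0.115), within a range of 2.73e-06 to 0.121. The summed seed markers given above were higher in the same silver libraries, Ag+ 2 being highest in both, and their part in the PER1 result was not tested.

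Of 12 photorespiration genes, the pathway that CAT2 serves, edgeR called 0 in each comparison, with 1, 5 and 8 at an unadjusted p under 0.05 for Ag+ against CK, AgNPs against CK and AgNPs against Ag+. The median log2 fold change was 0.01 with Ag+, and it was -0.42 for AgNPs against CK and -0.46 for AgNPs against Ag+, with all 12 values below 0 in both. A fall against Ag+ was not particular to this list. All 17 leaf mesophyll markers were below 0 there too (median -0.35), while 16 of them were above 0 for AgNPs against CK. Of the 47 further pathway genes, these 12 included, 35 were below 0 against CK and 37 against Ag+. PGLP1, 1 of the 12, stood near the floor, at 194 counts over all libraries. DESeq2 called 0, 2 lower (GLDT and GDCH, parts of the glycine decarboxylase complex) and 1 lower (HPR1, hydroxypyruvate reductase), and limma voom called 0 in each. Without CK 3 and AgNPs 1 edgeR called 0, 3 lower (AGT1, GLDT and PLGG1) and 6 lower. The 6 included GOX1 and GOX2, the glycolate oxidases that make hydrogen peroxide in peroxisomes. That fit also called more of all genes in each comparison than edgeR on all 9 libraries. The libraries of AgNPs lay wholly below those of CK for 2 of the 12 and wholly below those of Ag+ for 7, beside 11.1% and 11.7% of all tested genes. The log2 fold change of CAT2 between AgNPs and Ag+ was -0.63 with a 95% interval of -1.36 to 0.10 (adjusted p = 0.399).

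Of 7 genes of ascorbate synthesis, edgeR called 0 in each comparison, with 3, 1 and 2 at an unadjusted p under 0.05. DESeq2 called GME, an epimerase of this pathway, lower with AgNPs against CK and 0 in the other comparisons, and limma voom called 0 in each. Without CK 3 and AgNPs 1 edgeR called 3 higher (VTC1, VTC2 and VTC4) and 1 lower (VTC5) with Ag+ against CK. In that fit it called 1 higher (VTC2) and 2 lower (GME and GALDH) with AgNPs against CK, and 2 lower (GME and GALDH) between AgNPs and Ag+. For both genes of glutathione synthesis, GSH1 and GSH2, edgeR, DESeq2 and limma voom called 0 in each comparison, and 0 had an unadjusted p under 0.05. For both catalase partners, NCA1, a chaperone needed for catalase activity, and LSD1, a cell death regulator known to bind catalases, edgeR, DESeq2 and limma voom called 0, with 0 at an unadjusted p under 0.05. Without CK 3 and AgNPs 1 LSD1 was called lower with AgNPs against CK.

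Heat-shock RNA varied within groups, with sums of 138, 141 and 1022 CPM in CK, 101, 74.0 and 294 in Ag+, and 324, 1112 and 1458 in AgNPs. HSFA7A, a heat shock factor, was the 1 gene of the 9 tested that edgeR called, and DESeq2 also called HSP17.6A, lower with Ag+ against CK and higher with AgNPs against Ag+. It fell with Ag+ against CK (17.9 ± 3.24 to 6.58 ± 0.858 CPM, SD, n = 3; log2 fold change -1.44, edgeR adjusted p = 0.00405) and was higher with AgNPs than with Ag+ (1.07, adjusted p = 0.0498). The second call was lost when CK 2 or a single silver library was left out (0.053 to 0.18) and with limma voom (0.0772), within a range of 0.000365 to 0.18. With AgNPs against CK edgeR called 0 of the 9 on all libraries. Without CK 3 and AgNPs 1 it called 5 heat-shock genes higher there and 5, HSFA7A among them, higher with AgNPs than with Ag+. CK 3 was set apart by its heat-shock RNA, so this fit rests on values that chose a library to leave out and adds no separate evidence. CAT3 in CK 3, at 2258 CPM, lay between CK 1 and CK 2, and DHAR1 in CK 3, at 163 CPM, above both.

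**Figure D5:**
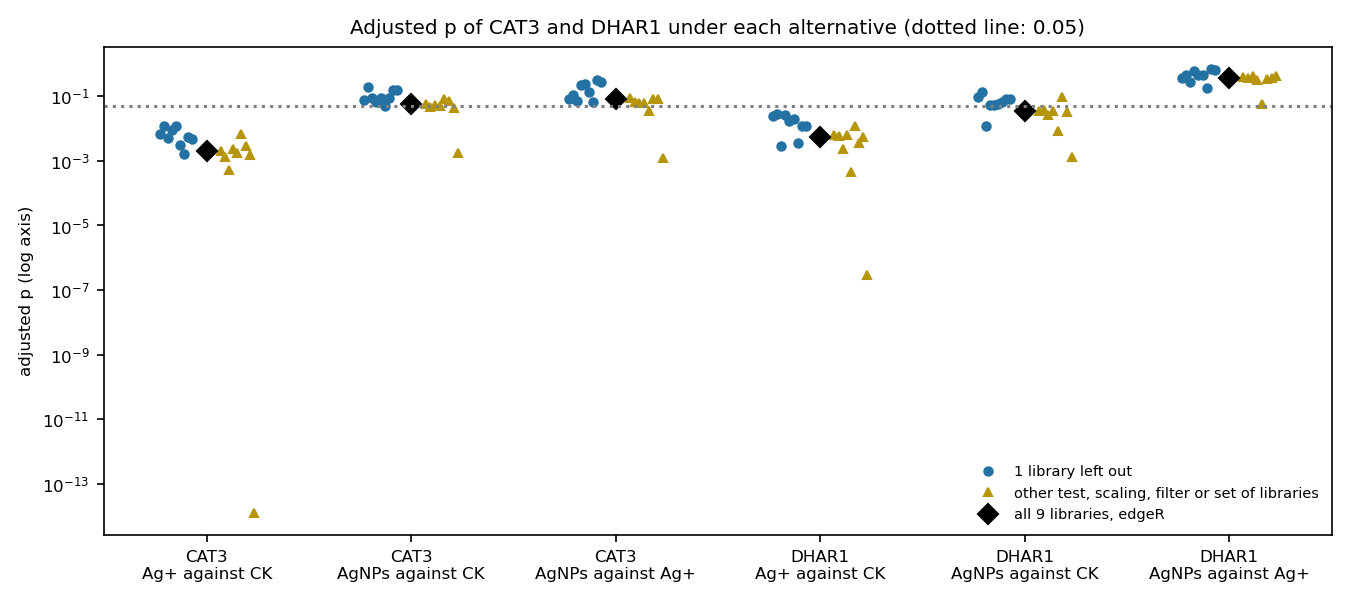
Adjusted p on a log axis for CAT3 and DHAR1 under the main fit and each alternative, with a dotted line at 0.05. Points for Ag+ against CK stay under the line for both genes (highest 0.0124 and 0.0279), and points for AgNPs lie on both sides of it.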

How the data were processed

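RNA of 9 leaf libraries was depleted of ribosomal RNA, per the labels' protocols, and sequenced as paired reads in a single lane. The submitters' processing notes name HISAT2, an aligner, and the build TAIR10. For the counting tool, strand setting and annotation, nothing is stated in the sources used here. The authors deposited whole-number counts per gene, not normalized, in 38202 rows, 11452 of them without any count. Replicate pairs differed by 8.99 to 64.2 in chi-square per degree of freedom, more than counting noise, and each library was counted as 1 sample.

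Groups were compared with the quasi-likelihood test of edgeR 4.0.16 (R 4.3.3, robust) in a single model of all 9 libraries containing only the group, after filterByExpr and TMM scaling. Two-sided p-values were adjusted for each of 3 comparisons by Benjamini-Hochberg over 19889 genes. The biological coefficient of variation was 22.5%. CPM used TMM-scaled library sizes, and CPM per kb divided it by the longest RefSeq transcript (TAIR10.1). The SE was taken as the absolute log2 fold change over the root of F. Scripts were tested on simulated counts for Ag+ against CK. The fit called 47 of 100 genes changed 2-fold and 81 of 100 changed 4-fold. A gene that was not called may therefore still have changed. Alternatives left out each library, or CK 3 and AgNPs 1 together, changed the scaling (RLE or upper quartile) or the filter, fitted 6 libraries, added the replicate number as a block, or used DESeq2 1.42.0 or limma voom 3.58.1.

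Replicate numbers were checked by the correlation of deviations from group means. Same-numbered CK and Ag+ libraries gave 0.123, 0.186 and 0.231, all over 0.1, and different-numbered ones -0.182 to 0.049. From the data alone, a block in these 6 libraries was therefore tried as an alternative. Different-numbered libraries of Ag+ and AgNPs reached 0.291 (Ag+ 2 with AgNPs 1) and 0.148 (Ag+ 3 with AgNPs 2). Such values do not establish that the samples were paired, and the labels name no pairing. Same-numbered libraries gave -0.079, -0.114 and -0.024 for CK with AgNPs, and -0.092, -0.206 and 0.122 for Ag+ with AgNPs. No such block was fitted for these comparisons in their 6 libraries.

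The 10 genes, the 49 further pathway genes and the clock, heat-shock, leaf, root and seed lists were chosen with earlier results of these data known. All 10 were named, as was each pathway, clock or heat-shock gene called in at least 1 comparison, with the 3 genes most like each called member. Other genes named were chosen after their values were seen.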

Additional observations from a re-analysis of the deposited data

How the results depend on the processing

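The calls of CAT3 and DHAR1 with Ag+ against CK held under all 18 other settings, and 2 of the 10 genes were called there throughout. Over the 10 genes and 3 comparisons, 481 of 520 values under alternatives kept direction and side of the threshold, 9 lost a call, 9 gained one and 21 changed sign. With AgNPs against CK the count of 1 became 0 to 2 as single libraries were left out, 2 with upper-quartile factors, limma voom or DESeq2, 3 without CK 3 and AgNPs 1, and 0 in the 6 libraries compared. Between AgNPs and Ag+ the count of 0 became 1 without CK 3 and AgNPs 1 and 1 with DESeq2. Over all genes, 1108 were called with Ag+ against CK (419 to 1372 with a library left out, 2003 without CK 3 and AgNPs 1, 1885 with DESeq2). With AgNPs against CK 660 were called (224 to 809, 1603, 1425 with DESeq2, and 351 in the 6 libraries). Between AgNPs and Ag+ 136 were called (0 to 444, 1276, 845 with DESeq2, 408 in the 6 libraries and 47 with limma voom). The cause of these differences was not tested, and leaving out libraries leaves fewer samples.

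With the replicate number as a block, 236 genes were called between AgNPs and Ag+. The block in the 6 libraries of Ag+ and CK, chosen after seeing the data, called 1639 genes, kept CAT3 (adjusted p = 0.00281) and DHAR1 (0.00356), and ended the call of PER1. Seed and leaf markers were not examined in that fit. In the fit of 9 libraries the block also ended the calls of PRXQ (0.06) and PER1 (0.0617) with AgNPs against CK.

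Signs changed only among log2 fold changes that were not called. CAT2 with AgNPs against CK was -0.01 with the block and -0.36 without CK 3 and AgNPs 1, and -0.19 to 0.22 with a library left out. DHAR2 with Ag+ against CK was 0.01 with the block, 0.03 with the block in 6 libraries, 0.03 with limma voom and 0.27 without CK 3 and AgNPs 1, and -0.15 to 0.25 with a library left out. APX1 between AgNPs and Ag+ was 0.04 without CK 3 and AgNPs 1, and -0.19 to 0.08 with a library left out. Leaving out a library also gave -0.09 to 0.25 for SAPX, -0.14 to 0.21 for GR1 and -0.01 to 0.10 for GR2 with Ag+ against CK. GR1 had the lowest depth of the 10 genes, at 1909 counts over all libraries.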
